A study of Mus musculus with 6 samples.

Results

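Integrins, the adhesion proteins of the costamere and the dystrophin complex were followed as 38 genes, chosen by symbol from a list of 38 names, and all 38 were found among the 54532 genes of the deposited table. They comprise 14 integrin alpha chains, 7 integrin beta chains, 10 cytoplasmic adhesion proteins and 7 genes of the dystrophin complex. RNA had been sequenced from hearts at day 4 (so read from the sample titles), in a series on diabetes in pregnancy and the heart of the offspring. In the STZ group (n = 3) the mothers were injected intraperitoneally with STZ, read here as streptozotocin, which destroys insulin-producing beta cells, while pregnant. In the control group (n = 3) the mothers were injected with citric acid by the same route while pregnant. All offspring were wild-type mice of ICR, an outbred stock, so any diabetes was a condition of the mother and no gene was altered. The labels do not say how many litters the 6 hearts came from or whether animals were pooled, so the p-values measure only the spread between these 6 samples.

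Integrins are pairs of an alpha and a beta chain that span the cell membrane, bind matrix proteins outside the cell and hold actin inside it through talin, kindlin, vinculin and the complex of integrin-linked kinase, PINCH and parvin. In heart muscle these proteins gather at costameres, rib-like sites that tie the Z-discs of the outer myofibrils to the membrane and to laminin. The dystrophin complex runs beside them: dystrophin binds actin, dystroglycan binds dystrophin and laminin, and the sarcoglycans and sarcospan stabilise dystroglycan. Loss of dystrophin or of a sarcoglycan can cause muscular dystrophy with cardiomyopathy.

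The values are FPKM, that is reads per kilobase of gene length relative to the size of each library as the authors chose it, and they corresponded to 16707268 to 18082599 whole reads per library. Control 2 stood apart. Summed over 10 cardiomyocyte markers, all of them above 1 FPKM in every heart, the STZ hearts held 14475 to 15511 FPKM and the control hearts 16670, 7389 and 14067 FPKM. All 8 atrial markers were highest in control 2, and their sum was 49.2 to 131 FPKM in STZ hearts and 54.3, 6319 and 59.1 FPKM in control hearts. Of 10 fibroblast markers 9 were highest in control 2, with sums of 913 to 961 FPKM in STZ hearts and 1007, 1887 and 1122 FPKM in control hearts. The sums of 8 nerve and Schwann cell markers were 1.48 to 2.42 FPKM in STZ hearts and 2.32, 55.7 and 3.23 FPKM in control hearts. Of these 8 markers, 0 reached 1 FPKM in every heart. Relative to its recovered reads, the authors' scale was 1.21 in control 2, against 0.985 to 1.03 among the other 5 libraries. Fitted changes and ratios below are therefore also given without control 2, and the part of these cell types in any result was not tested. In whole hearts, fewer cells of a type and less RNA per cell cannot be told apart.

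The levels of the 38 genes spanned 3 orders of magnitude in these hearts. Itgb1, the beta chain that most alpha chains of heart muscle pair with (GRCm38 chromosome 8, 128685654 to 128733200, plus strand), was the most abundant, at 275 ± 17.2 FPKM in STZ hearts and 254 ± 41.0 FPKM in control hearts (SD, n = 3 each). Dag1, which encodes both subunits of dystroglycan, came next at 99.8 ± 0.123 FPKM in STZ hearts and 86.1 ± 17.3 FPKM in control hearts, and Fermt2 (kindlin-2) and Lims1 (PINCH-1) were the 2 others above 50 FPKM on average. A further 13 genes averaged 10 to 50 FPKM, 13 averaged 1 to 10 FPKM and 8 averaged under 1 FPKM. All 21 integrin chains together gave 105 to 117 FPKM of alpha chains and 295 to 330 FPKM of beta chains in STZ hearts, against 96.8 to 113 FPKM and 262 to 322 FPKM in control hearts. Itgb1 made up 87.3% to 88.5% of the beta-chain FPKM in STZ hearts and 88.5%, 79.0% and 88.0% in control hearts 1 to 3. Itga5, Itga6 and Itga9 together made up 65.3% to 67.7% of the alpha-chain FPKM in STZ hearts and 64.1%, 54.2% and 63.2% in control hearts 1 to 3, so control 2 had the lowest share by both measures.

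**Figure D1:**
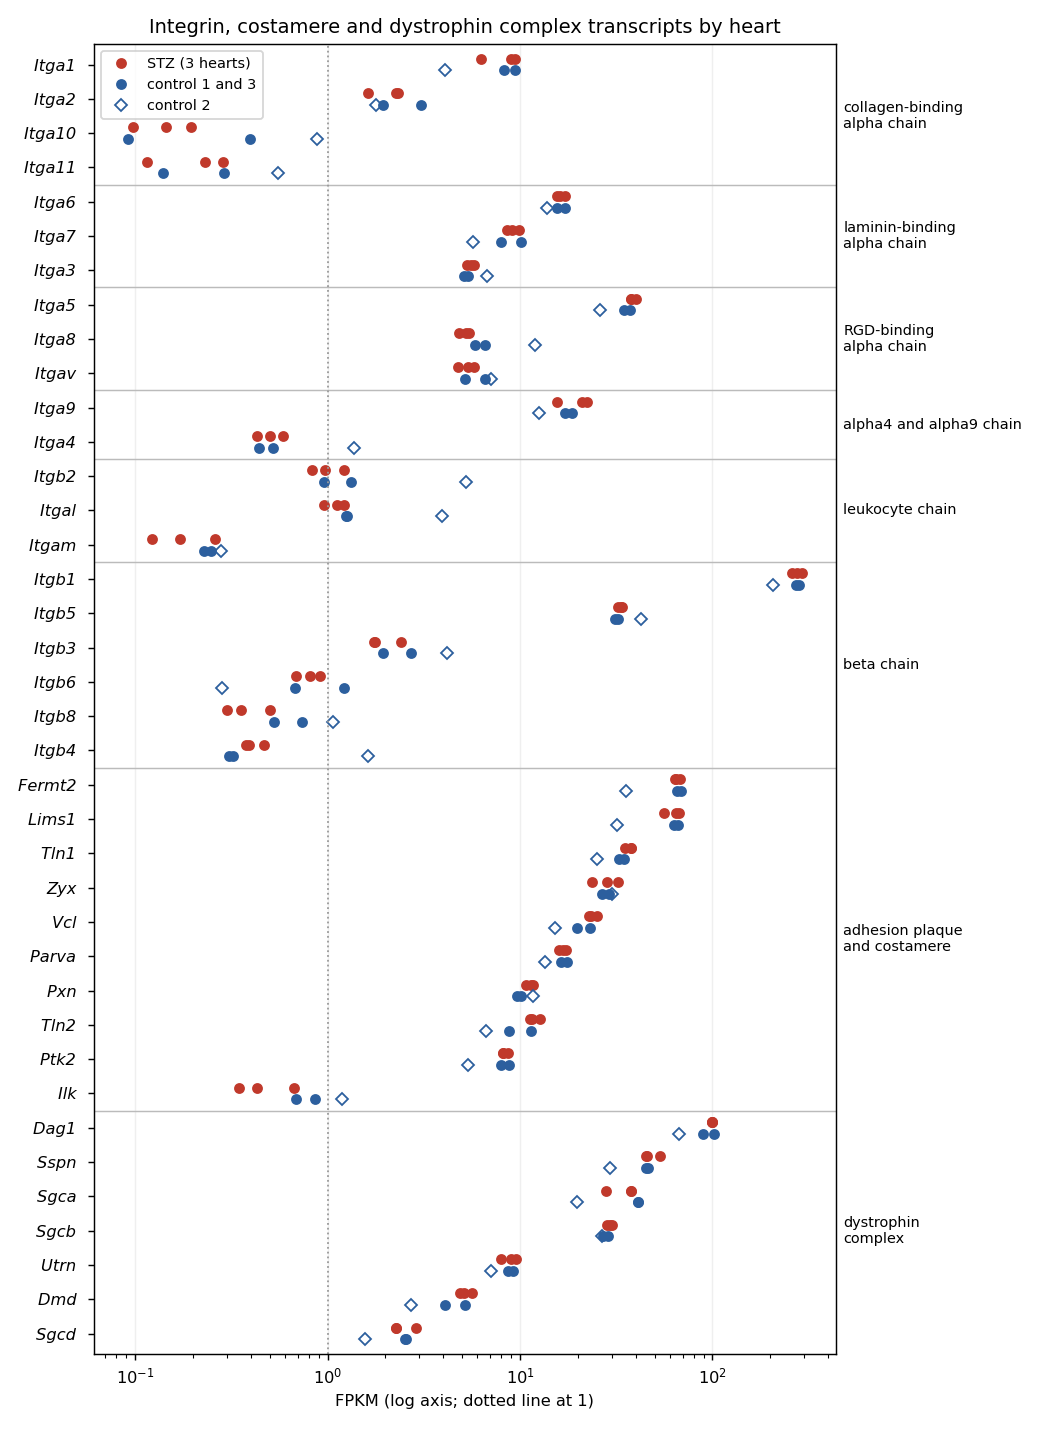
FPKM of each of the 38 genes in each heart on a log axis, grouped by role, with STZ hearts (red) drawn above control hearts (blue) and control 2 as an open diamond. Itgb1 lies near 275 FPKM and Itgam near 0.2 FPKM, and the open diamond is the lowest or the highest value for 28 of the 30 tested genes.

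Whether STZ injection of the mother went with a change of these transcripts was tested on log2(FPKM + 1). The test covered all genes that reached 1 FPKM in 3 or more hearts. This filter kept 30 of the 38 genes and 12431 genes in all. No tested member passed the threshold (limma, BH-adjusted p from 0.922 to 0.972), against 0.0241% of all genes tested. At an unadjusted p under 0.05 the limma count was also 0 of 30, against 2.59% of all genes, and voom on recovered reads gave 0 members at either threshold. The groups did not overlap at 4 of the 30 members, or 13.3%, where the share of all genes tested was 8.54%. Fitted changes, STZ over control, ran from -0.61 for Itgb2 to 0.40 for Tln2 on the log2 scale. They were above 0 for 21 members and below 0 for 9, with a median of 0.11, while 57.7% of all genes tested were above 0 and their median was 0.03.

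These directions rested largely on control 2. It was the lowest of the 6 hearts at 20 of the 30 tested members, or 66.7%, against 41.7% of all genes tested, and the highest at 8, or 26.7%, against 27.4%. Without control 2 the median fitted change of the members was -0.0037, with 14 above and 16 below 0, and 13 members changed sign. Over all genes tested the median was then -0.0016, with 49.4% above 0. No member passed then either (limma, BH-adjusted p of 0.9999 for each, against 0.0322% of all genes called), and 0 of 30 were at an unadjusted p under 0.05, against 3.93% of all genes. The 95% intervals were set against a 1.5-fold change of FPKM + 1 in either direction, a scale that understates changes of low genes. With all 6 hearts the interval lay within it for 13 of 30 members, against 8281 of 12431 genes. Without control 2 it did so for 28 of 30 members, against 10442 of 12431 genes. The 2 members with wider intervals there were Itga2 and Sgca. The 28 include Itgb2 and Itgal, which averaged only 1.14 and 1.25 FPKM in controls 1 and 3. With voom on recovered reads and all 6 hearts, the interval lay within 1.5-fold for 9 of 30 members, against 6383 of 12431 genes.

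**Figure D2:**
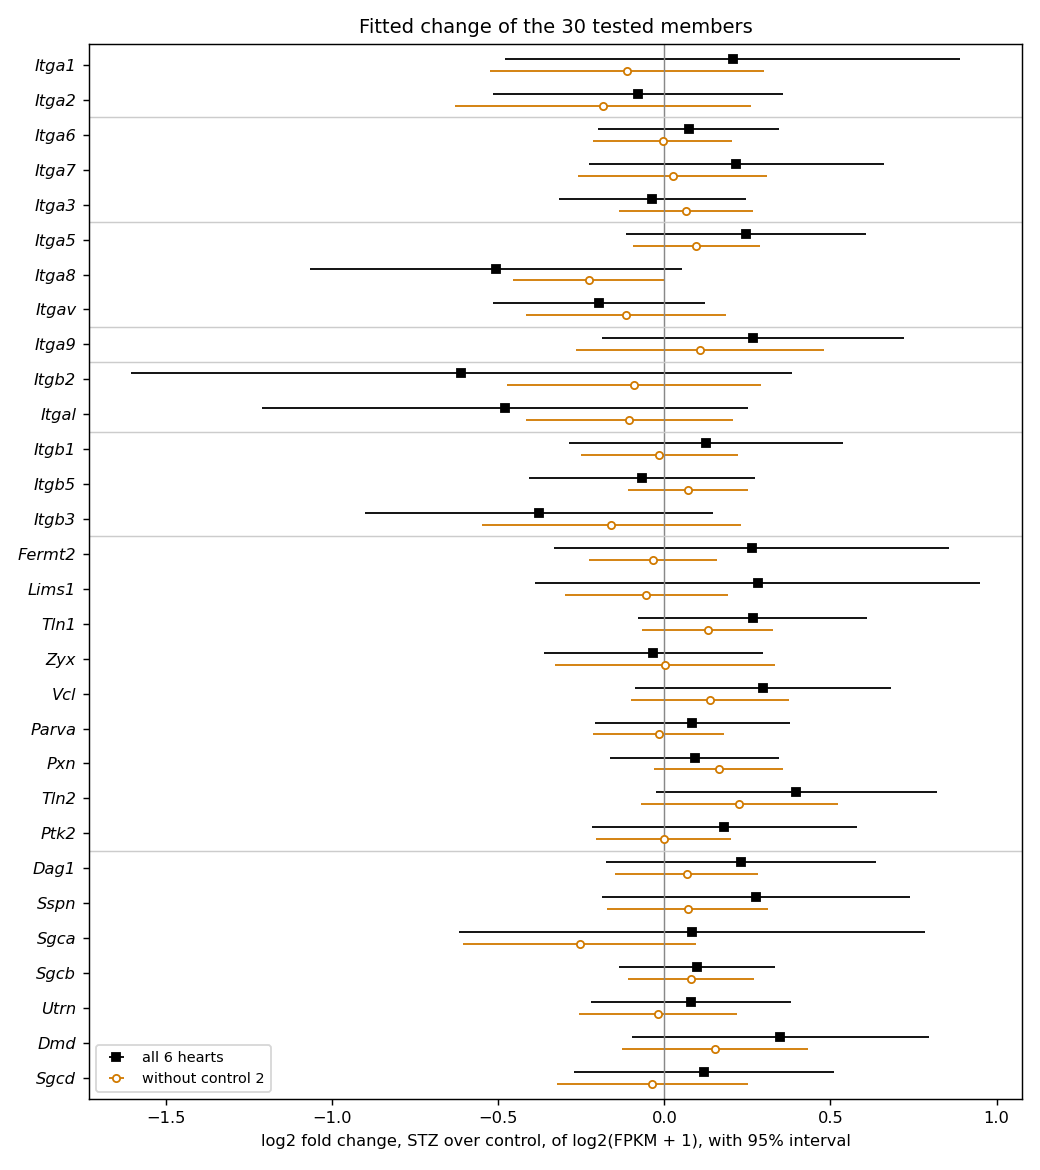
Fitted log2 fold change, STZ over control, of the 30 tested genes with 95% intervals, from all 6 hearts (black squares) and without control 2 (open orange circles). Every interval from all 6 hearts includes 0, and the estimates without control 2 lie between -0.26 and 0.23.

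Receptors for laminin and collagen showed no change that passed the test. Itga6, a laminin receptor chain, was at 15.5, 16.2 and 17.2 FPKM in STZ hearts and at 15.6, 13.7 and 17.1 FPKM in control hearts. Itga7, the laminin receptor chain typical of muscle, was at 9.09, 9.87 and 8.56 FPKM in STZ hearts and at 10.1, 5.70 and 7.99 FPKM in control hearts. The groups overlapped for both genes, and control 2 was lowest for both. Their fitted changes were 0.07 (SE 0.115) and 0.22 (SE 0.187), and -0.0049 and 0.03 without control 2. Stretches of Itga6, and likewise of Itgb2, Itgb5, Parva and Ilk, have a near-identical copy at another locus in GENCODE M21, so their levels are uncertain as far as the counting split such reads. Itga3, the third laminin receptor chain here, averaged 5.54 ± 0.26 FPKM in STZ hearts and 5.74 ± 0.858 FPKM in control hearts (SD, n = 3 each), and its fitted change of -0.04 turned to 0.07 without control 2. Itga1, which pairs with beta 1 to bind basement membrane collagen, was at 6.26, 9.02 and 9.38 FPKM in STZ hearts and at 8.29, 4.08 and 9.43 FPKM in control hearts. STZ 1 and control 2 were the 2 lowest for Itga1, and its fitted change of 0.21 (SE 0.289) was -0.11 without control 2. Itga2, the other tested collagen receptor chain, averaged 2.06 ± 0.39 FPKM in STZ hearts and 2.27 ± 0.704 FPKM in control hearts, with a fitted change of -0.08, and -0.19 without control 2. The remaining collagen receptor chains, Itga11 and Itga10, were too low for the test. Itga11, a chain of fibroblasts, was at 0.285, 0.232 and 0.116 FPKM in STZ hearts and 0.139, 0.556 and 0.289 FPKM in control hearts. Itga10, known from cartilage, had 98 reads in control 2 and 8 to 36 reads in the other libraries. Of its exon bases, 33.5% are shared in GENCODE M21 with Gm42957 on the same strand, so its level is uncertain.

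Among receptors for the RGD motif of fibronectin and related ligands, Itga5 and Itga8 stood on opposite sides. Itga5, the fibronectin receptor chain, was at 39.97, 37.9 and 38.0 FPKM in STZ hearts and at 34.8, 26.2 and 37.3 FPKM in control hearts. All STZ values lay above all control values, although control 3 was close below them. Itga8, which binds nephronectin as a pair with beta 1 and is known from mesenchyme and smooth muscle, was at 4.83, 5.26 and 5.44 FPKM in STZ hearts and at 5.84, 11.9 and 6.62 FPKM in control hearts. All STZ values of Itga8 lay below all control values, and control 2 was far above the others. Such separation was found at 4.92% of all genes with STZ above and at 3.62% with STZ below control. The fitted changes were 0.25 (SE 0.152) for Itga5 and -0.51 (SE 0.236) for Itga8, and without control 2 they were 0.10 (SE 0.0792) and -0.23 (SE 0.0945). Itgav, the partner of beta 3, beta 5, beta 6 and beta 8, was at 4.77, 5.39 and 5.78 FPKM in STZ hearts and at 5.16, 7.09 and 6.56 FPKM in control hearts, with overlapping groups and a fitted change of -0.20, and -0.11 without control 2. Itga9, whose pair with beta 1 binds tenascin C and other ligands, averaged 19.6 ± 3.50 FPKM in STZ hearts and 16.1 ± 3.18 FPKM in control hearts (SD, n = 3 each), and its fitted change of 0.27 was 0.11 without control 2. Itga4, a receptor chain for Vcam1 and fibronectin, averaged 0.508 ± 0.08 FPKM in STZ hearts and 0.777 ± 0.516 FPKM in control hearts, and was not tested.

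The beta chains kept 1 order in all 6 hearts at the top: Itgb1 was first and Itgb5 second. Itgb1 was at 274, 292 and 258 FPKM in STZ hearts and at 272, 207 and 283 FPKM in control hearts. Itgb5, which pairs with alpha v to bind vitronectin, was at 33.5, 34.0 and 32.5 FPKM in STZ hearts and at 31.0, 42.5 and 32.4 FPKM in control hearts. Control 2 was thus lowest for Itgb1 and highest for Itgb5, and the groups overlapped for both. The fitted changes of 0.13 (SE 0.174) and -0.07 (SE 0.144) both turned without control 2, to -0.02 and 0.07. Itgb3, the beta chain of platelets and endothelium, averaged 1.97 ± 0.383 FPKM in STZ hearts and 2.94 ± 1.14 FPKM in control hearts (SD, n = 3 each), and its fitted change of -0.38 was -0.16 without control 2. Itgb8, another partner of alpha v, was at 0.356, 0.301 and 0.502 FPKM in STZ hearts and at 0.526, 1.07 and 0.738 FPKM in control hearts. All its STZ values lay below all control values, on 56 to 103 reads in STZ libraries and 98 to 253 reads in control libraries, and it was below the limit for testing. Itgb4, the hemidesmosome chain of epithelia, was under 0.5 FPKM in 5 hearts and at 1.63 FPKM in control 2, and Itgb6, an epithelial partner of alpha v, was between 0.283 and 1.22 FPKM.

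Chains of leukocyte integrins were low in 5 hearts and higher in control 2. Itgb2, the shared beta chain of leukocytes, was at 1.22, 0.975 and 0.83 FPKM in STZ hearts and at 0.954, 5.27 and 1.33 FPKM in control hearts. Itgal, which pairs with it on lymphocytes and other leukocytes, was at 1.12, 1.21 and 0.96 FPKM in STZ hearts and at 1.27, 3.91 and 1.24 FPKM in control hearts. The STZ values of Itgal lay below all control values, by a margin that is narrow for controls 1 and 3. Fitted changes were -0.61 (SE 0.418) for Itgb2 and -0.48 (SE 0.308) for Itgal, and -0.09 and -0.11 without control 2. Over 8 lymphocyte markers, among which Cd79a, Ms4a1 and Nkg7 were under 1 FPKM in every heart, the summed level was 1.58 to 1.68 FPKM in STZ hearts and 1.28, 23.8 and 1.06 FPKM in control hearts. Over 10 macrophage markers, 9 of them highest in control 2, it was 44.6 to 55.2 FPKM in STZ hearts and 52.05, 110 and 56.7 FPKM in control hearts, and the part of these cells was not tested. Itgam, the chain of macrophages and neutrophils, was at 0.123, 0.261 and 0.172 FPKM in STZ hearts and at 0.248, 0.279 and 0.227 FPKM in control hearts, on 11 to 30 reads. Of the exon bases of Itgam, 68.7% are shared in GENCODE M21 with Gm49368, a longer annotated gene on the same strand, which was listed at 0 in 5 hearts, so the Itgam level is uncertain.

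**Figure D3:**
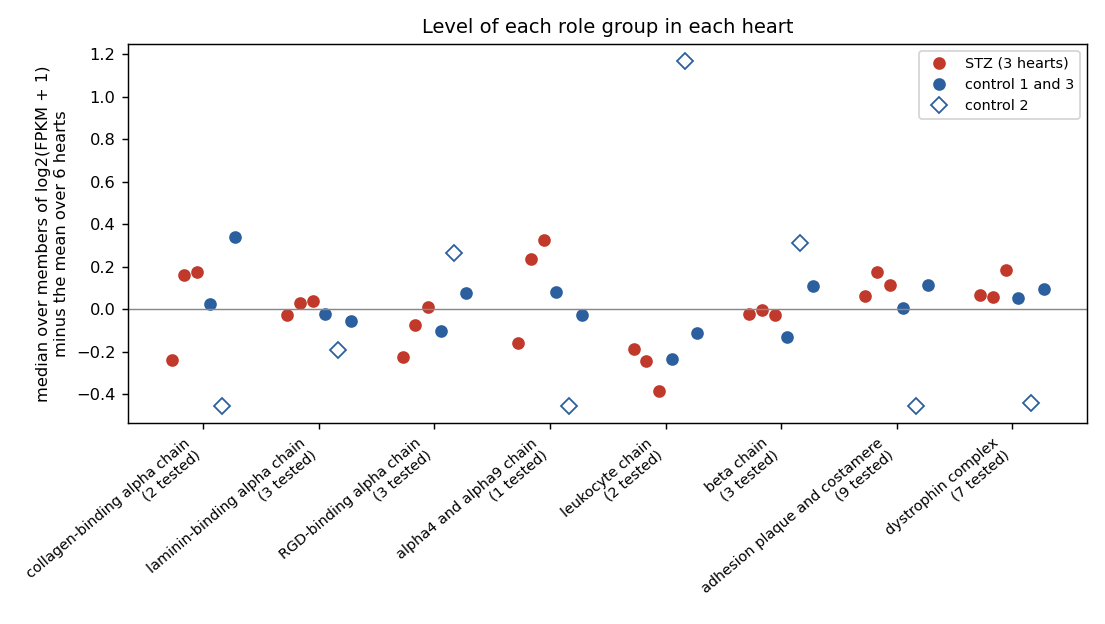
Level of each role group in each heart, as the median over its tested genes of the deviation of log2(FPKM + 1) from that gene's average of all 6 hearts. Control 2 (open diamond) lies at -0.46 for adhesion plaque and costamere genes and -0.44 for the dystrophin complex and at 1.17 for leukocyte chains, while the STZ hearts (red) and controls 1 and 3 (filled blue) overlap in every group.

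Adhesion plaque genes had fitted changes above 0 at 8 of 9 tested members, with a median of 0.26, and at 5 of 9 with a median of 0.0028 without control 2. Tln1, the widely expressed talin that links integrin tails to actin, was at 35.0, 37.9 and 37.5 FPKM in STZ hearts and at 32.6, 25.01 and 34.5 FPKM in control hearts. Tln2, the main talin isoform of mature heart and skeletal muscle, was at 11.5, 11.3 and 12.8 FPKM in STZ hearts and at 11.3, 6.68 and 8.76 FPKM in control hearts. STZ values of Tln1 lay above all control values, while STZ 2 and control 1 overlapped narrowly for Tln2. Tln2 had the lowest unadjusted p of the members, 0.062, with a fitted change of 0.40 (SE 0.178; limma, BH-adjusted p = 0.922), and 0.23 without control 2. The Tln1 fitted change was 0.27 (SE 0.145), and 0.13 without control 2. Vcl, encoding vinculin, which reinforces stretched talin, was at 22.8, 25.04 and 23.3 FPKM in STZ hearts and at 19.8, 15.1 and 23.2 FPKM in control hearts. Control 3 lay within the STZ range for Vcl, and the fitted change of 0.30 (SE 0.162) was 0.14 without control 2. For Vcl 25.5% of exon bases are shared with Ap3m1 on the opposite strand, so a part of its reads cannot be assigned without a stated strand setting.

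For kindlin-2 and PINCH-1, control 2 alone set the lower control mean. Fermt2, which encodes kindlin-2, the co-activator that binds beta tails beside talin, averaged 65.4 ± 2.36 FPKM in STZ hearts and 56.5 ± 18.1 FPKM in control hearts (SD, n = 3 each). Control 2 was at 35.6 FPKM of Fermt2, and controls 1 and 3 at 65.3 and 68.6 FPKM. Lims1 averaged 62.5 ± 5.64 FPKM in STZ hearts and 53.8 ± 19.1 FPKM in control hearts, with control 2 at 31.8 FPKM. Fitted changes of 0.26 for Fermt2 and 0.28 for Lims1 turned to -0.03 and -0.05 without control 2. Parva, a parvin of this complex, averaged 16.7 ± 0.663 FPKM in STZ hearts and 15.8 ± 2.10 FPKM in control hearts. Its fitted change of 0.08 turned to -0.02 without control 2. The focal adhesion kinase gene Ptk2 averaged 8.35 ± 0.309 FPKM in STZ hearts and 7.38 ± 1.76 FPKM in control hearts, and its fitted change of 0.18 turned to -0.0025 without control 2. Pxn and Zyx, the paxillin and zyxin adaptors, averaged 11.2 ± 0.494 and 28.1 ± 4.27 FPKM in STZ hearts and 10.5 ± 1.05 and 28.6 ± 1.81 FPKM in control hearts, and control 2 was not low for either. Their fitted changes were 0.09 for Pxn and -0.03 for Zyx, and 0.16 and 0.0028 without control 2.

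Ilk, the integrin-linked kinase gene, was listed far below its partners, at 0.348, 0.672 and 0.432 FPKM in STZ hearts and at 0.866, 1.19 and 0.687 FPKM in control hearts. STZ values lay below all control values on 17 to 31 reads in STZ libraries and 33 to 70 reads in control libraries, and the gene was under the limit for testing. Ilk lies on GRCm38 chromosome 7, 105736592 to 105742925, plus strand. In GENCODE M21, 89.7% of its exon bases are also exon bases of genes on the minus strand, 2106 of 2744 of them in Taf10, a subunit gene of the TFIID complex. Taf10 was at 6.97, 6.52 and 6.04 FPKM in STZ hearts and at 6.63, 9.33 and 6.26 FPKM in control hearts. Without a stated strand setting, the reads of Ilk and Taf10 cannot be told apart, and no level or change of Ilk is read from these values.

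Promoter windows are shown for the 4 members whose window holds a CArG box, the motif bound by serum response factor. RefSeq windows of 300 bases on GRCm38.p6, from 250 before to 50 after a start site, matched 28 of the 38 genes with 36 windows, and had no entry for Itga6, Itga7, Itgal, Itgb2, Itgb3, Itgb4, Parva, Ptk2, Pxn and Tln2. On both strands, a CArG box was found in 4 of these windows (11.1%), those of Vcl, Fermt2, Dmd and Itgb6, and in 1.63% of all 32851 windows. The sequences below run 5′ to 3′ on the gene's strand with the box in capitals, for chr14:20929148-20929447 (plus), chr14:45530016-45530315 (minus), chrX:82948620-82948919 (plus) and chr2:60673644-60673943 (minus). A match in these letters is a description and not a bound site.
Vcl: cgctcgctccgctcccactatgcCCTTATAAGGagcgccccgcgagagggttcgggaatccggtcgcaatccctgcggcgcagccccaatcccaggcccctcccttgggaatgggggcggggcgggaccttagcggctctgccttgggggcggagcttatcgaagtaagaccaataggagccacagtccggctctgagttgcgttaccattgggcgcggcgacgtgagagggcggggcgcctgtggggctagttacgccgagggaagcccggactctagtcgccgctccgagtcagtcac
Fermt2: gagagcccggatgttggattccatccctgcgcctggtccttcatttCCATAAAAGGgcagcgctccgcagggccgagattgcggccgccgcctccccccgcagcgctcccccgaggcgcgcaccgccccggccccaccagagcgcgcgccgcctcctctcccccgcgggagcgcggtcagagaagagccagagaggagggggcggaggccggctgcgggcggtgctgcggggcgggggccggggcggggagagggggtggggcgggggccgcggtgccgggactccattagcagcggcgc
Dmd: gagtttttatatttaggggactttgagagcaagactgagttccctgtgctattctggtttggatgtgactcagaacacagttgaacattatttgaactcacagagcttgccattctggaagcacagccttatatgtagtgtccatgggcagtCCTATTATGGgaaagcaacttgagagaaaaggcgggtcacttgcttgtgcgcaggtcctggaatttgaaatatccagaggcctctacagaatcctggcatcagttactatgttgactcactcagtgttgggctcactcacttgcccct
Itgb6: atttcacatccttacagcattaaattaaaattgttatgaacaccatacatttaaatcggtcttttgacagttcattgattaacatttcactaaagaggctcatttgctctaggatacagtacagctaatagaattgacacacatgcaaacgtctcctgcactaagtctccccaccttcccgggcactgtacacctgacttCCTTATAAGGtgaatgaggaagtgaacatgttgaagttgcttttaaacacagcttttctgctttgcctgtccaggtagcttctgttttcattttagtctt
The Vcl window also holds the MCAT motif CATTCC, bound by TEAD factors, at a place that does not overlap its CArG box; this motif was in 6 of the 36 windows (16.7%) and in 14.7% of all windows, on either strand.

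In the dystrophin complex all 7 members had fitted changes above 0 with all hearts, with a median of 0.12, and 4 of 7 without control 2, with a median of 0.07. Dmd, encoding dystrophin (GRCm38 chromosome X, 82948870 to 85206141, plus strand), was at 4.90, 5.10 and 5.65 FPKM in STZ hearts and at 4.07, 2.71 and 5.15 FPKM in control hearts. Utrn, encoding utrophin, the related protein found along the membrane before dystrophin replaces it, was at 7.93, 8.95 and 9.55 FPKM in STZ hearts and at 8.67, 7.08 and 9.16 FPKM in control hearts. The groups overlapped for both, control 2 was lowest for both, and utrophin was above dystrophin per length in every heart. Fitted changes were 0.35 (SE 0.188) for Dmd and 0.08 (SE 0.127) for Utrn, and 0.15 and -0.02 without control 2. Control 3 was the 1 heart with Xist above 1 FPKM, at 70.6 FPKM, and held the highest control value of the X-linked Dmd. It also held the highest control value of Utrn on chromosome 10, but not that of Dag1 on chromosome 9. Without control 3 the fitted change of Dmd was 0.52, and the median over the 30 tested members also rose, from 0.11 to 0.20. Xist, the RNA of the inactive X chromosome of females, was at most 0.0541 FPKM in the other hearts, so the groups may differ in sex. The part of sex in the values of any member, and of X linkage in those of Dmd, was not tested.

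Dystroglycan and its membrane partners also did not pass the test. Dag1 was at 99.96, 99.8 and 99.7 FPKM in STZ hearts and at 101, 67.4 and 89.4 FPKM in control hearts. Its STZ values lay within 1 FPKM of each other, control 1 was above them and controls 2 and 3 below, and the fitted change of 0.23 (SE 0.171) was 0.07 without control 2. Sspn, encoding the four-pass membrane protein sarcospan, was at 45.7, 45.3 and 53.5 FPKM in STZ hearts and at 45.2, 29.4 and 46.1 FPKM in control hearts. Its groups overlapped, and the fitted change of 0.28 (SE 0.195) was 0.07 without control 2. The sarcoglycan genes differed among themselves. Sgca, the sarcoglycan gene restricted to striated muscle, was at 37.6, 28.0 and 37.9 FPKM in STZ hearts and at 40.9, 19.8 and 41.1 FPKM in control hearts. Controls 1 and 3 were both above every STZ heart and control 2 below them, so the fitted change of 0.08 (SE 0.295) turned to -0.26 (SE 0.145) without control 2. Sgcb was at 29.4, 28.5 and 30.2 FPKM in STZ hearts and at 26.8, 26.6 and 28.6 FPKM in control hearts, and Sgcd at 2.26, 2.27 and 2.87 FPKM in STZ hearts and 2.53, 1.56 and 2.55 FPKM in control hearts. Both overlapped between groups, and Sgcb had the narrowest interval of all tested members, from -0.14 to 0.33, and moved least when a heart was left out, between 0.08 and 0.13. Without control 2 the fitted change of Sgcb was 0.08, against 0.10 with all hearts, and that of Sgcd turned to -0.04, against 0.12.

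Ratios of paired members within a heart do not depend on the scale of a library, and 5 were compared. The log2 ratio of Dmd over Utrn was -0.69, -0.81 and -0.76 in STZ hearts and -1.09, -1.39 and -0.83 in control hearts. All STZ ratios lay above all control ratios, although control 3 was close below them. The difference was 0.35, with an exact two-sided permutation p of 0.1, the smallest that 3 against 3 samples allow, and a BH-adjusted permutation p of 0.5 over the 5 ratios. Without control 2 the difference was 0.21, again at the smallest exact permutation p possible, which is 0.1 for 3 against 2 samples. The log2 ratio of Sgca over Sgcb averaged 0.22 ± 0.212 in STZ hearts and 0.23 ± 0.573 in control hearts (SD, n = 3 each; exact permutation p = 1). Without control 2 its difference was -0.34, with both remaining controls above all STZ hearts (exact permutation p = 0.1). The muscle talin ratio, Tln2 over Tln1, averaged -1.64 ± 0.098 in STZ hearts and -1.80 ± 0.244 in control hearts (exact permutation p = 0.4). Itga7 over Itga5 averaged -2.08 ± 0.116 and Itga7 over Itga6 -0.83 ± 0.154 in STZ hearts, against -2.07 ± 0.246 and -0.9999 ± 0.331 in control hearts (exact permutation p = 1 and 0.5). Without control 2 the differences were 0.11 for Tln2 over Tln1, against 0.17 with all hearts, -0.07 for Itga7 over Itga5, against -0.0057, and 0.03 for Itga7 over Itga6, against 0.17.

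**Figure D4:**
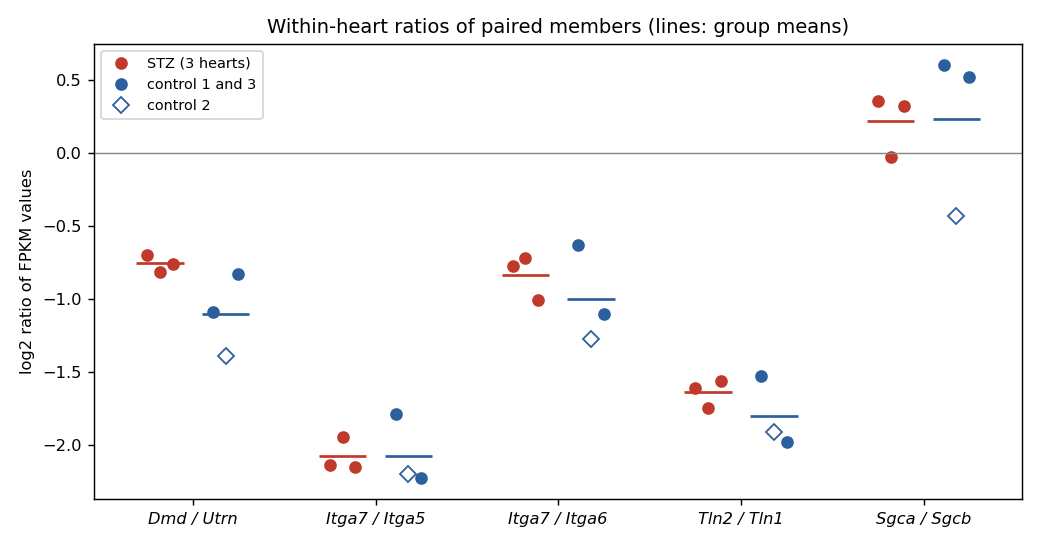
Log2 ratios of FPKM within each heart for 5 pairs of members, STZ hearts (red) left of control hearts (blue), control 2 as an open diamond and lines at group means. For Dmd over Utrn the STZ hearts lie between -0.81 and -0.69, above all control hearts, while the other 4 ratios overlap.

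Other genes of the same pathways, from 5 lists, gave no pass either (limma, BH-adjusted p from 0.922 to 0.999). Of 27 further adhesion adaptors 25 were tested, 17 with a fitted change above and 8 below 0, and 16 above and 9 below without control 2. Flnc, a filamin of striated muscle, averaged 47.5 ± 2.21 FPKM in STZ hearts and 35.6 ± 10.7 FPKM in control hearts, and Tns1, a tensin, 54.7 ± 2.996 FPKM in STZ hearts and 43.6 ± 9.40 FPKM in control hearts (SD, n = 3 each). For both, all STZ values lay above all control values, and their fitted changes of 0.45 and 0.34 were 0.19 and 0.16 without control 2. Both were named for the smallest unadjusted p of this list, a choice that favours separated groups. Separation with STZ above control was found at 4.92% of all genes tested. Of 13 further dystrophin-associated genes 10 were tested, 8 above and 2 below 0, and 7 above and 3 below without control 2. Plec, which ties intermediate filaments to these complexes, averaged 18.6 ± 1.31 FPKM in STZ hearts and 14.2 ± 4.01 FPKM in control hearts, and the syntrophin gene Sntb2 6.82 ± 1.18 FPKM in STZ hearts and 7.999 ± 0.222 FPKM in control hearts. The fitted changes were 0.40 for Plec and -0.21 for Sntb2, and 0.16 and -0.23 without control 2. The enzymes that add the laminin-binding sugar of dystroglycan had 12 of 13 genes tested, 5 above and 7 below 0 with a median of -0.04, and 4 above and 8 below without control 2. In that list B3galnt2 averaged 2.58 ± 0.288 FPKM in STZ hearts and 3.11 ± 0.402 FPKM in control hearts, with a fitted change of -0.20, and -0.14 without control 2. Of 20 matrix ligands 19 were tested, 13 above and 6 below 0 with a median of 0.04, and 10 above and 9 below without control 2. Npnt, the nephronectin ligand of alpha 8, averaged 1.23 ± 0.061 FPKM in STZ hearts and 2.65 ± 1.55 FPKM in control hearts. As for Itga8, all its STZ values, at most 1.28 FPKM, lay below its control values of 1.37, 4.37 and 2.20 FPKM. Its fitted change was -0.63 (SE 0.283), and -0.30 without control 2. Vtn, the vitronectin ligand of alpha v, averaged 2.96 ± 0.578 FPKM in STZ hearts and 1.70 ± 1.09 FPKM in control hearts, with a fitted change of 0.61 (SE 0.28), and 0.38 without control 2. Fn1, the fibronectin ligand of alpha 5, was named after its values were seen, at 67.5, 69.5 and 69.2 FPKM in STZ hearts and at 71.9, 106 and 90.1 FPKM in control hearts. Its STZ values lay below all control values, where those of Itga5 lay above, and its fitted change of -0.36 (SE 0.163) was -0.22 without control 2. Of the matrix ligands, Npnt and Vtn were named for the smallest unadjusted p. Separation with STZ below control was found at 3.62% of all genes tested. The matrix ligands Col4a2 and Lamb2 were separated the other way, with STZ above control. None of 5 further integrin chains, those of platelets and leukocytes, reached the limit for testing.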

How the data were processed

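RNA of 6 mouse hearts was measured, 3 in the STZ and 3 in the control group. RNA came from an RNeasy kit and libraries from a SMARTER mRNA kit, per the labels' protocols. The builds GRCm38 and mm10 are named in the submitters' processing notes; for aligner, counter, strand setting and whether reads or fragments were counted, the answer is "not given in the sources used here". The deposited values are FPKM, read so from the authors' abbreviation for the table and from the values: multiplied by gene length, 100% of the values of a library were whole reads within 0.01 reads after division by 1 constant, which gave the recovered reads. Every pair of libraries differed beyond sampling noise (chi-square per degree of freedom of at least 12.8).

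Group was the only term in two-sided limma-trend fits (limma 3.58.1, R 4.3.3) of log2(FPKM + 1), over genes that reached 1 FPKM in 3 or more hearts, with Benjamini-Hochberg adjustment over all genes tested and a threshold of 0.05. Fold changes on that scale understate those of low genes. Ratios had exact permutation tests over samples. Alternatives covered pseudocount, filter, scaling, replicate block, array weights and each library left out. Voom on recovered reads was added after the data were seen, in place of a count test that was not run. The deposited values are FPKM, so any count test would rest on recovered reads, as voom does. The members, gene lists and tests were chosen with earlier results of these data known. Named were all members, with values in every sample for a chosen subset and for others whose groups do not overlap, and, from each pathway list, the 2 genes with the smallest unadjusted p, except for an item that is not reported here. Exon overlaps used GENCODE M21, in which all 38 members have the deposited position and length. Figures used matplotlib 3.10.9 in Python 3.11.15.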

Additional observations from a re-analysis of the deposited data

How the results depend on the processing

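No member passed the threshold under any of the 14 alternatives (limma, BH-adjusted p from 0.691 to 0.9999), and the fitted changes of all 30 tested members kept their direction under the pseudocount of 0.1, no filter, trimmed-mean and quantile scaling, the replicate block and voom on recovered reads, as did the 24 members that a mean of at least 5 FPKM left. The quasi-likelihood count test was not run. With array weights, which gave control 2 the lowest weight (0.146), 6 members turned: Itgb5 to 0.066, Sgca to -0.29, Zyx to 0.071, Parva to -0.0062, Itga3 to 0.061 and Sgcd to -0.032. Leaving out 1 heart at a time turned 14 members, 13 of them without control 2. Their ranges were -0.015 to 0.21 for Itgb1, -0.034 to 0.43 for Fermt2, -0.054 to 0.47 for Lims1, -0.15 to 0.071 for Itgb5, -0.26 to 0.25 for Sgca, -0.13 to 0.080 for Zyx, -0.018 to 0.16 for Parva, -0.0049 to 0.14 for Itga6, -0.019 to 0.15 for Utrn, -0.0025 to 0.30 for Ptk2, -0.11 to 0.41 for Itga1, -0.10 to 0.066 for Itga3, -0.036 to 0.20 for Sgcd and -0.19 to 0.091 for Itga2. The medians ran from 0.0028 to 0.35 for adhesion plaque genes, 0.026 to 0.14 for laminin-binding, -0.15 to 0.25 for collagen-binding and -0.31 to -0.11 for RGD-binding alpha chains, -0.15 to -0.015 for beta chains, -0.80 to -0.099 for leukocyte chains and 0.068 to 0.25 for the dystrophin complex. Ratio differences ran from -0.083 to 0.14 for Itga7 over Itga5, -0.34 to 0.17 for Sgca over Sgcb, 0.035 to 0.35 for Itga7 over Itga6, 0.077 to 0.30 for Tln2 over Tln1 and 0.21 to 0.48 for Dmd over Utrn. The count of all genes past the threshold was 3, and 2 to 5 with 1 heart left out, 8 with array weights and 0 with the replicate block. Without control 1, Tln2, Itga8 and Itgb3 were at an unadjusted limma p under 0.05, 3 of 30 members against 551 of 12431 genes. Without control 3, Dmd and Vcl were, 2 of 30 members against 699 of 12431 genes. None of these members passed the adjusted threshold. Same-numbered hearts of the 2 groups did not deviate together (correlations of 0.02, -0.04 and 0.09 across genes), so the numbers are not taken as pairs, and the block changed no call of a member. With 3 hearts a group the precision is limited by the spread between hearts and, under 1 FPKM, by few reads. The cause of these shifts was not tested.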

Other observations

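The share of protein-coding genes at low levels did not move in 1 direction with exon overlap. Among protein-coding genes with over 80% of their exon bases shared with exons of another gene in GENCODE M21, 327 of 340 (96.2%) averaged under 1 FPKM, against 8185 of 15411 (53.1%) of those with no shared base. The share was 1664 of 5205 (32.0%) for up to 25% of bases shared, 338 of 702 (48.1%) for 25% to 50% and 202 of 293 (68.9%) for 50% to 80%. Tagln, a smooth muscle gene outside the members with 67.9% of exon bases shared, averaged 0.289 FPKM. The part of the counting of shared bases in these levels was not tested.

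The remaining cell type lists varied as follows. Summed epicardial and mesothelial markers were at 51.7 to 57.5 FPKM in STZ hearts and at 51.3, 112 and 75.3 FPKM in control hearts. Endothelial markers summed to 366 to 418 FPKM in STZ hearts and 408, 335 and 423 FPKM in control hearts, and smooth muscle and pericyte markers to 452 to 774 FPKM in STZ hearts and 720, 491 and 601 FPKM in control hearts. Erythroid markers summed to 2229 to 4022 FPKM in STZ hearts and 4927, 14548 and 2596 FPKM in control hearts. Neutrophil markers summed to 6.34 to 11.6 FPKM in STZ hearts and 8.03, 16.5 and 8.06 FPKM in control hearts. Platelet markers summed to 7.59 to 10.6 FPKM in STZ hearts and 11.1, 24.4 and 7.997 FPKM in control hearts. Only 2 of 8 neutrophil markers and 1 of 7 platelet markers reached 1 FPKM in every heart, so these sums rest on few genes.

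Outside the members, Itgb1bp2 (melusin), a muscle protein that binds the beta 1 tail, was at 63.8 ± 6.55 FPKM in STZ hearts and 63.1 ± 21.1 FPKM in control hearts (SD, n = 3 each). It was named after its values were seen. The caveolin gene Cav3, likewise named afterwards, was at 103 ± 14.9 FPKM in STZ hearts and 87.7 ± 19.4 FPKM in control hearts.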
